A study of Rattus norvegicus with 2 samples.

Results

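The genes of the proteasome, the protease complex that degrades ubiquitin-tagged proteins, were measured in the whole blood of rats given lavender oil (LO) and of control rats. A probe was counted as a member when the RefSeq accession printed for it on the array belonged to a gene whose symbol starts with Psma, Psmb, Psmc, Psmd, Psme, Psmf or Psmg followed by a digit. This gave 38 probes for 34 genes, of 41009 probes on the array, of which 10767 carried a gene symbol and covered 8898 genes. By role they fell into 14 probes for 13 subunits of the core particle, 3 probes for the 3 immunoproteasome subunits, 19 probes for 16 genes of the regulators and 2 probes for genes that share only the symbol. The labels give male rats, 7 weeks old before at least a week of acclimation. Blood was taken after LO (5 mg/kg in 10% ethanol) or the 10% ethanol diluent alone (0 mg/kg) had been put into the stomach once a day for 13 days. Each pool held the RNA of 6 rats. On array 1 Cy5 marked LO and Cy3 marked control. On array 2 the dyes of these pools were swapped, so that the 2 arrays are 1 replicate and hold no spread between rats. The labels give both Wistar and F334 as the strain, and they name the heart and the portal vein as sources of the blood where the methods name the heart.

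The core particle of the proteasome is a stack of rings, in which the outer alpha rings gate the entry and the inner beta rings hold the catalytic sites. The regulatory particle binds the ubiquitin chain, unfolds the protein with a ring of ATPases and feeds it into the core. In blood leukocytes and in cells exposed to interferon-gamma, the catalytic subunits Psmb8, Psmb9 and Psmb10 can take the place of the constitutive ones, and the activator made of Psme1 and Psme2 can dock to the core. This form, the immunoproteasome, cuts peptides that the Tap1 and Tap2 transporter brings to MHC class I molecules. Blood also holds platelets and reticulocytes, which keep proteasomes in the absence of a nucleus.

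None of the member probes passed the rule for a change between the LO pool and the control pool. Every subunit probe was well above background, and each of their LO/control ratios stayed between 0.863 and 1.17 on array 1 and between 0.876 and 1.17 on array 2. Over all members the mean ratio of the 2 arrays was lowest for Psme3ip1, which is no subunit, at 0.945, and highest for Psme2, at 1.095. The lowest of a subunit was 0.953, for a probe of Psmd2. The methods give a threshold under 0.01 and ask for a ratio that points to the same pool on both arrays. This was read here as a Feature Extraction p under 0.01 on each array. Over the whole array it called 4 probes higher and 5 lower in the LO pool. These are far fewer than the genes that the paper lists, so that the counts here are not the paper's own. By this rule 0 members were higher in the LO pool (0.00975% of all probes) and 0 were lower (0.0122% of all probes). The number with this p on both arrays towards the same dye was also 0 (2.64% of all probes). Among the 15371 probes above background for both pools on both arrays, as nearly all members were, the rule called 0 (0%) towards a pool and 1.42% towards a dye. Of these, 5497 had a mean signal over 500, as 30 of the members had, and the rule called 15 of the 5497 towards a dye. The p rests on the error that the software models for a spot, so that it compares the hybridised pools and not the conditions.

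Signals were checked before the ratios. The Feature Extraction software rated 37 of the 38 member probes (97.4%) as well above background in all 4 channels, that is, for both pools on both arrays, against 37.5% of all probes. Each member probe was printed on 1 spot, with 0 of these flagged as non-uniform or as outliers and 0 saturated. The probe of Psmc3ip, which encodes a partner of the recombinase in meiosis and is no subunit, was the exception. Its control signal was 92.9 on array 1 and 66.3 on array 2, and its LO signal was 64.1 and 108. The channels rated above background were the control on array 1 and the LO pool on array 2, both of them Cy3. Of the markers of blood cells, 7 of 7 red cell probes, 6 of 6 platelet probes, 7 of 9 neutrophil and monocyte probes, 5 of 7 T cell probes and 1 of 2 B cell probes were above background in all 4 channels. This also held for 5 of 15 liver probes and 2 of 8 heart muscle probes, and the part of other cell types in the member signals was not tested. In a pool, fewer cells of a type and less RNA per cell cannot be told apart.

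The processed signals of the core probes ranged from 546 to 27878 for the LO pool on array 1 and from 523 to 26985 for the control pool. On array 2 they ranged from 537 to 28211 and from 490 to 27115. The immunoproteasome probes lay between 1523 and 3245 over all 4 channels. Signals of the regulator probes ranged from 192 to 11606 for the LO pool and from 207 to 12165 for the control pool on array 1. On array 2 they ranged from 223 to 11550 and from 198 to 11213. A signal depends on the probe as well as on the RNA, so that these ranges give no order between genes. Processed signals are those after the software had normalized the dyes. After this step the LO pool gave nearly the same signal on both arrays. The median gap was 1.05-fold over the 37 member probes and the largest 1.19-fold. The control pool had a median gap of 1.06-fold and a largest gap of 1.198-fold. Over the 15371 probes above background in all 4 channels the median gap was 1.14-fold for either pool. Their median signal was 293, against 1402 for the members.

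**Figure D1:**
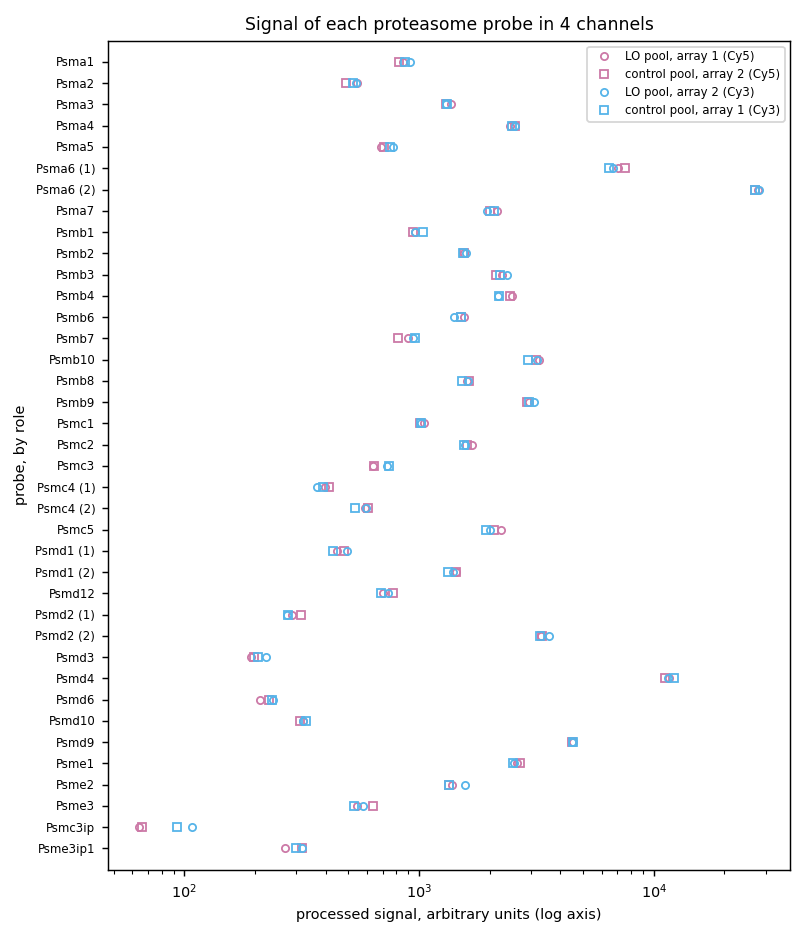
Processed signal of each of the 38 member probes (arbitrary units, log axis), with circles for the LO pool and squares for the control pool, purple for Cy5 and blue for Cy3. Probes are grouped by role, and a number in brackets tells 2 probes of a gene apart. The 4 signals of a probe lie close together, except for Psmc3ip, where both Cy3 signals (92.9 and 108) lie above both Cy5 signals (64.1 and 66.3).

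The alpha ring was covered by 8 probes for 7 genes, Psma1 to Psma7, with a mean LO/control ratio from 0.990 to 1.07. Psma2 had the highest of these, from LO signals of 546 on array 1 and 537 on array 2 and control signals of 523 and 490. Its ratio was 1.04 and 1.096, so that the LO pool was higher on both arrays by a small margin. The 95% interval of the mean, from the error the software gives to each log ratio, was 0.874 to 1.31 and held 1. For Psma4 the LO signals were 2437 and 2554 and the control signals 2479 and 2559, with ratios of 0.983 and 0.998. It was the only member with the LO pool lower on both arrays. The other alpha genes had the LO pool higher on both arrays in Psma3 and in 1 of 2 probes of Psma6, while the direction turned with the array in Psma1, Psma5, Psma7 and the other Psma6 probe.

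The structural beta subunits Psmb1, Psmb2, Psmb3 and Psmb4 had mean ratios from 0.971 to 1.07. Psmb3 was at the upper end. Its LO signals were 2267 and 2381 against control signals of 2215 and 2129, which gave ratios of 1.02 and 1.12 and a 95% interval of the mean from 0.879 to 1.302. With background-subtracted signals centred on the median its mean ratio was 0.979, but the median log2 ratio of all probes above background also fell, from -0.003 to -0.074. Psmb4 showed one of the largest contrasts between the arrays. The LO signal was 2492 and the control signal 2196 on array 1, and on array 2 they were 2180 and 2431, so that the higher signal was in Cy5 both times. Its ratios of 1.13 and 0.897 averaged to 1.01.

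Of the constitutive catalytic subunits, Psmb6 cuts after acidic and Psmb7 after basic residues, while Psmb5, which cuts after hydrophobic ones, was not analysed here. Psmb6 had LO signals of 1549 and 1413 and control signals of 1503 and 1517. The ratios were 1.03 and 0.931, with a mean of 0.979 (95% interval 0.804 to 1.19). Psmb7 turned the other way, with LO signals of 893 and 939 and control signals of 965 and 812. Its ratios of 0.926 and 1.16 gave a mean of 1.03 (95% interval 0.848 to 1.26). Neither gene had the same direction on both arrays.

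The immunoproteasome subunits had mean LO/control ratios from 1.02 to 1.06, which turned to 0.945 for Psmb8, 0.971 for Psmb9 and 0.991 for Psmb10 with background-subtracted signals centred on the median. That scaling lowered the whole array, as the median log2 ratio of all probes above background went from -0.003 to -0.074. Psmb8, which replaces Psmb5, had LO signals of 1608 and 1624 and control signals of 1523 and 1640, with ratios of 1.06 and 0.990. Psmb9, which replaces Psmb6, had LO signals of 2944 and 3104 and control signals of 2940 and 2893, with ratios of 1.001 and 1.07. For Psmb10, which replaces Psmb7, the LO signals of 3245 and 3184 both lay above the control signals of 2900 and 3144. The ratios of Psmb10 were 1.12 and 1.01. The 95% interval of the mean held 1 for all 3 genes, with 0.840 to 1.24 for Psmb8, 0.852 to 1.26 for Psmb9 and 0.875 to 1.295 for Psmb10. In the gene order of the GRCr8 assembly, Tap2, Psmb8, Tap1 and Psmb9 follow each other within the MHC region, and Psme1 and Psme2 are separated by Emc9 alone.

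Among the regulators, the ATPases Psmc1 to Psmc5 were covered by 6 probes with mean ratios from 0.957 to 1.06. Psmc3 had the largest dye contrast of the members above background. Its LO signal was 640 and its control signal 741 on array 1, and on array 2 they were 732 and 644, with both higher values in Cy3. The ratios were 0.863 and 1.14 and the mean 0.991. Of the other regulatory particle genes, which include the ubiquitin receptor Psmd4 and the scaffolds Psmd1 and Psmd2, 8 probes for 6 genes had mean ratios from 0.953 to 1.04. Psmd6 was near the lower end, with LO signals of 209 and 238 and control signals of 237 and 230, and with ratios of 0.882 and 1.04. The assembly chaperones Psmd9 and Psmd10 had mean ratios of 0.9992 and 0.9996.

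Psme1 and Psme2 form the activator that interferon-gamma induces, and Psme3 forms a nuclear one. Psme2 had the highest mean ratio of the members, 1.095 (95% interval 0.899 to 1.33). Its LO signals of 1382 and 1567 stood against control signals of 1343 and 1345, with ratios of 1.03 and 1.17. The LO pool was higher on both arrays, but the gap on array 1 was small. Psme1, its partner in the same ring, had LO signals of 2610 and 2540 and control signals of 2510 and 2692, with ratios of 1.04 and 0.943 that turned with the array. Psme3 did likewise, with LO signals of 546 and 578, control signals of 530 and 635, and ratios of 1.03 and 0.910. Psme3ip1, which encodes a partner of Psme3 and is no subunit, had LO signals of 267 and 317 and control signals of 300 on array 1 and 317 on array 2.

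**Figure D2:**
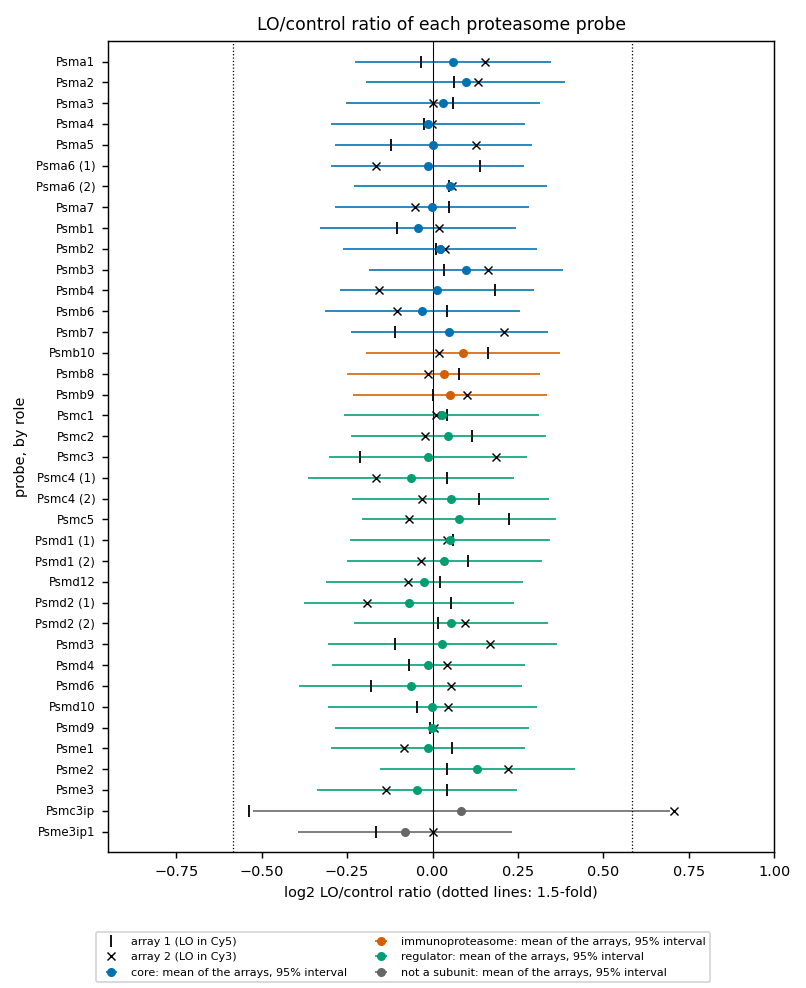
LO/control ratio (log2 axis) of each of the 38 member probes by role, with upright ticks for array 1, crosses for array 2, filled points for their mean and bars for the 95% interval from the software error of both log ratios. The intervals of all members hold 0, which is a ratio of 1, and the mean lies between 0.945 and 1.095 for the 37 probes above background; Psmc3ip has the widest bar and its arrays lie on opposite sides.

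The promoters of 31 of the 34 member genes were matched in RefSeq (GRCr8), and the 250 bases before the start were searched on both strands for 3 motifs that bear on the known control of these genes. The interferon regulatory factor motif (GAAA, any 2 bases, GAAA) was found in 4 of the 31 promoters (12.9%), those of Psma4, Psmb3, Psmb10 and Psme2, against 3.41% of all 33469 promoters. Psmb8, whose promoter was searched, was not among these 4. Neither were Psmb9 and Psme1, but whether their promoters were among the 31 is not given here, so that no absence can be read from this. The antioxidant response motif TGACNNNGC was found in 5 of 31 (16.1%, against 10.1%), those of Psma3, Psmb2, Psmb6, Psmd1 and Psmd9. The CCAAT box was found in 18 of 31 (58.1%, against 34.0%). A match is only a run of letters in this window. Shown here are the promoters of Psmb10 and Psme2, the interferon-inducible members with the first motif, and of Psmb6, a constitutive catalytic member with the second, with the motifs in capitals.
Psmb10 (chr19:50743293-50743542, minus strand): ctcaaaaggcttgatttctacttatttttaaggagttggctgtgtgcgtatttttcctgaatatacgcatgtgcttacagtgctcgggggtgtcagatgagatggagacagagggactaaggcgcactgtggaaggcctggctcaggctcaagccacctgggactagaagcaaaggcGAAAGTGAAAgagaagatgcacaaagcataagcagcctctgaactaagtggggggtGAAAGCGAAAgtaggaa
Psme2 (chr15:33052752-33053001, minus strand): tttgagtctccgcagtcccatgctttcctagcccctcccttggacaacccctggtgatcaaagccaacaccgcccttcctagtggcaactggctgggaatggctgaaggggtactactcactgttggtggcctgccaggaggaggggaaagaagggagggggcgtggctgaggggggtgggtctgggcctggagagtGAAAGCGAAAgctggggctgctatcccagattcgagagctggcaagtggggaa
Psmb6 (chr10:55737638-55737887, plus strand): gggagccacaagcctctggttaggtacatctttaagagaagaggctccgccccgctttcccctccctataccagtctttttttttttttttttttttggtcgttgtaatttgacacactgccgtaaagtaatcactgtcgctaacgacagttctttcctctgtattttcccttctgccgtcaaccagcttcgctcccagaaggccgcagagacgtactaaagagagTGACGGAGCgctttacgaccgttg
In Psmb10 the motif occurs 2 times, beginning 73 and 17 bases before the start, and in Psme2 once, at 53 bases. In Psmb6 the antioxidant response motif begins 24 bases before the start. The mean LO/control ratios of the 4 genes with the interferon motif were 0.991 for Psma4, 1.07 for Psmb3, 1.06 for Psmb10 and 1.095 for Psme2, each with an interval that held 1. Those of the 5 genes with the antioxidant motif were 1.02 for Psma3, 1.02 for Psmb2, 0.979 for Psmb6, 0.999 for Psmd9 and 1.02 and 1.04 for the probes of Psmd1.

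Each ratio was then divided into an LO part, which is the average of both arrays' log2 LO/control ratios, and a dye part, the difference of array 1 minus array 2 divided by 2, which is positive towards Cy5. Over the 37 member probes above background the LO part had a median of 0.02 on the log2 scale and an SD of 0.051, and ranged from -0.08 to 0.13. Over all 15371 probes above background its median was -0.003 and its SD 0.124. The dye part of the members had a median of -0.005, an SD of 0.092 and a range from -0.20 in Psmc3 to 0.17 in Psmb4, against an SD of 0.297 over all probes. A dye part over 1.2-fold was seen in 0 members and in 30.2% of all probes, and an LO part over 1.5-fold in 0 members and in 0.124% of all probes. Dim probes raise these shares. Among the 5497 probes of the array with a mean signal over 500, 6.13% had such a dye part and 0 such an LO part. The LO part was the larger of the 2 parts in 12 of 37 members, against 24.4% of all probes. Psmb7 followed Psmc3 and Psmb4 with a dye part of -0.16. Spread depends on signal, since the 30 member probes with a mean signal over 500 had an SD of 0.045 for the LO part and 0.090 for the dye part, whereas the 5497 such probes of the whole array had 0.060 and 0.143. Between members and all probes the gap in SD was therefore smaller at this signal, and no test of it was made.

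The LO pool was higher on both arrays in 11 of 37 members (11.7% of all probes) and lower on both in 1 (12.7%). The 11 were Psma2, Psma3, Psma6, Psmb2, Psmb3, Psmb9, Psmb10, Psmc1, Psmd1, Psmd2 and Psme2, with 1 probe each. These counts rest on ratios near 1 and on the scaling. With background-subtracted signals centred on the median they were 0 and 0, and with normexp and loess 13 and 5. With each array taken relative to the median of the probes above background they were 10 and 0, against 12.2% of these probes in either direction. Relative to that median, background-subtracted signals gave 5 and 0 (9.18% and 9.17%) and normexp with loess gave 10 and 5 (13.8% in either direction). The median LO part of the members stood 0.025 above that of all probes, and 0.004 and 0.023 above it with the other 2 scalings. The ratio followed the dye on both arrays in the other 25 members, towards Cy5 in 14 (37.8%, against 39.2% of all probes) and towards Cy3 in 11 (29.7%, against 36.5%). Across the 37 member probes, which share both pools and both arrays, the ratios of the arrays had Pearson's r at -0.53 and Spearman's rho at -0.57. Across the 15371 probes r was -0.70 and rho -0.68.

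**Figure D3:**
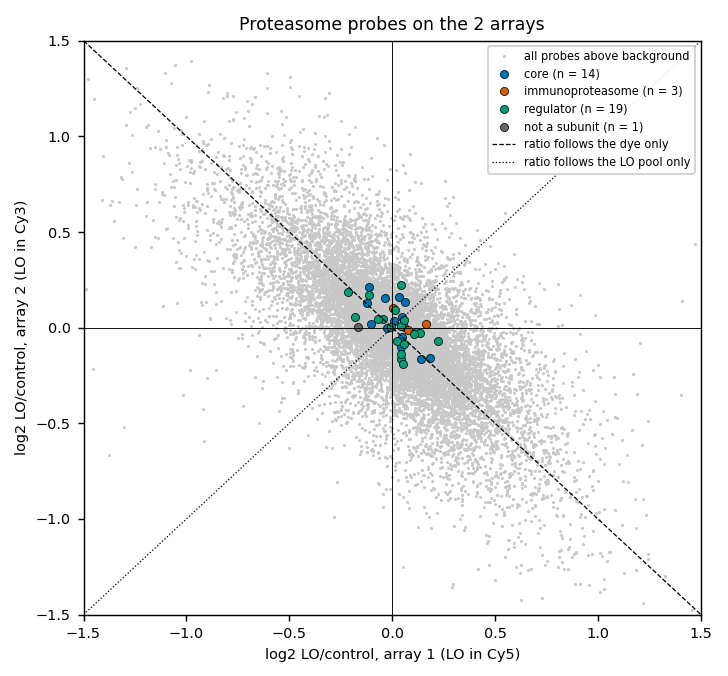
LO/control log2 ratio of array 1 (horizontal) against array 2 (vertical) for the 37 member probes above background, coloured by class, over the 15371 probes above background in grey; a few grey points lie outside the axes. The members form a tight group around the origin, within 0.863 to 1.17-fold on both arrays, while the grey cloud is drawn out along the dashed line on which the ratio follows the dye.

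The error model limits what could be called. The software error of the log2 ratio was 0.204 to 0.245 on array 1 and 0.204 to 0.239 on array 2 for the members above background, so that a ratio had to reach 1.44 to 1.55-fold on an array to pass the p threshold. The lowest p of any member was 0.236 on array 1 and 0.0981 on array 2, both for Psmc3ip. At a p under 0.01 there were 0 members on array 1 (5.95% of all probes, 3.42% of those above background) and 0 on array 2 (6.29% and 4.31%). At a p under 0.05 there were likewise 0 on array 1 (12.6% and 8.96%) and 0 on array 2 (13.6% and 10.6%). Of the 5497 probes with a mean signal over 500, 26 on array 1 and 22 on array 2 had a p under 0.01. At a p under 0.05 there were 89 and 75 of these, so that a count of 0 members is near the share at this signal. The 95% intervals of the mean ratio, which cover this error and not the spread between rats, ran from 0.761 at the lowest to 1.33 at the highest over the 37 members above background, and from 0.695 to 1.62 for Psmc3ip. They held 1 in every member. This is common to nearly all probes, as such an interval excluded 1 in only 121 of the 15371 probes above background. Among the 5497 with a mean signal over 500 it did so in 4. A difference between the pools inside these intervals was not detectable on 2 arrays.

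The values of genes with a pair of probes were set side by side. For Psmd2, the brighter probe had LO signals of 3307 and 3569 and control signals of 3274 and 3343, with a mean ratio of 1.04. The dimmer probe had LO signals of 288 and 274 and control signals of 277 and 313, with a mean ratio of 0.953. These differ by 0.12 in the LO part and by 0.16 in the dye part on the log2 scale. The gap in the LO part was 0.12 for Psmc4, 0.07 for Psma6 and 0.02 for Psmd1. For 15 member genes the RefSeq gene table also lists like-named copies, 44 in all and most of them pseudogenes, and binding of the probes to their transcripts was not tested. Psmb3 has 10 such copies and Psma6 has 5, while Psmb8, Psmb9 and Psmb10 have 0.

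Partners of the proteasome were described beside its subunits. Of 37 listed genes of the ubiquitin pathway (ubiquitin itself, ubiquitin-activating and -conjugating enzymes, proteasome-bound receptors and deubiquitinases, shuttle factors, the Vcp unfoldase with its cofactors, and assembly or transcription factors) 23 had a probe, and 31 of their 36 probes were above background in all 4 channels. By the p threshold 0 were higher (0.00975% of all probes) and 0 lower (0.0122%) in the LO pool. Both probes of the ubiquitin gene Ubb passed it towards Cy5, which is 2 of the 36 probes, against 2.64% of all probes towards a dye. One Ubb probe had LO signals of 690996 on array 1 and 349489 on array 2 and control signals of 472153 and 586546. The dye part was 0.65 for this probe and 0.68 for the other, more than for any member. The LO part of the 31 partner probes above background had a median of -0.02 and an SD of 0.107. It was highest for a probe of Nsfl1c, a Vcp cofactor, at 0.13 and one of Ube2a, a ubiquitin-conjugating enzyme, at 0.10. The lowest of these were a probe of Ngly1, which removes sugar chains from proteins bound for the proteasome, at -0.34 and that of Adrm1, a ubiquitin receptor of the regulatory particle, at -0.25. Other probes of Nsfl1c and Ngly1 were nearer to 0, at 0.02 and -0.08. The direction turned with the array in the extreme probes of Ngly1, with ratios of 1.04 and 0.597, and Nsfl1c, with 0.920 and 1.31. With normexp and loess the mean ratio was 0.952 for that Ngly1 probe and 0.942 for Adrm1, against 0.789 and 0.839 here.

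The peptide-loading and interferon genes, which work downstream and upstream of the immunoproteasome, had a probe for 14 of 20 listed genes, and 16 of 17 probes were above background. Again 0 were higher (0.00975% of all probes) and 0 lower (0.0122%) in the LO pool by the p threshold. Towards a dye 1 of the 17 passed it, against 2.64% of all probes. This was the probe of Ciita, the activator of MHC class II genes, towards Cy3 with a dye part of -0.95. The LO part of the 16 probes above background had a median of -0.03. It was 0.07 for Irf1, a transcription factor of the interferon response, and lowest for Ifngr1, the receptor of interferon-gamma, at -0.36 and for the chaperone Canx at -0.35. The LO signals of Ifngr1 were 172 and 163 against control signals of 200 and 231. The direction turned with the array in Canx, with ratios of 1.07 and 0.582, and in Irf1, with 1.75 and 0.634. With normexp and loess the mean ratio was 0.954 for Ifngr1 and 0.938 for Canx, against 0.779 and 0.787 here. Tap1 had a mean ratio of 0.992 and Tap2 of 1.05, beside 1.02 for Psmb8 and 1.04 for Psmb9, their neighbours on the chromosome.

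**Figure D4:**
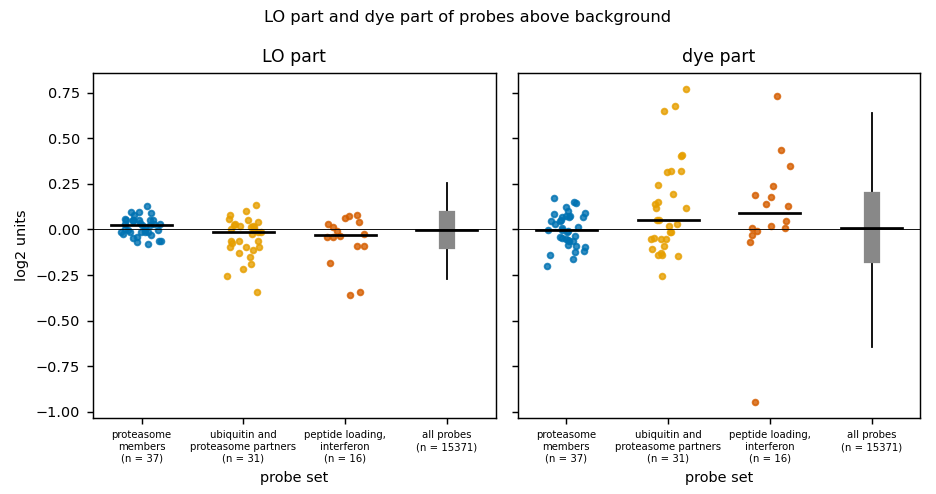
LO part (left) and dye part (right) in log2 units for the 37 member probes, the 31 partner probes and the 16 peptide-loading and interferon probes above background, each point a probe with a line at the median, beside all 15371 probes (line at the median, grey bar for the middle 50%, thin line for the middle 95%). The members spread less than the other sets in both panels, with SDs of 0.051 and 0.092 against 0.107 and 0.258 for the partners and 0.134 and 0.345 for the interferon set, with no test made. The sets are not alike in signal, on which spread depends, with medians of 1402 for the members, 738 for the partners and 447 for the interferon set.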

How the data were processed

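RNA from the whole blood of LO and control rats was pooled by group and measured on 2 Agilent arrays, a technical dye swap treated as 1 replicate, and no test between conditions was made. The authors extracted the images with Agilent Feature Extraction 11.0.1.1, which subtracted the background and normalized the dyes by LOWESS. The deposited scanner files hold intensity columns (median, background-subtracted and processed signals), the log10 of the Cy5/Cy3 ratio, the score of its error and the p-value of the error model. The value table that the authors deposited states no scale; it equalled the log10 ratio of the processed signals within 0.001 log2 units for 43379 features on each array, with a median of 0.0265 and 0.0190 (log10), and had the same values for all members.

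Control spots and 338 flagged features were left out, spots of a probe were averaged (median p), and ratios were turned to LO over control on the log2 scale. Intervals used the error of both arrays, taken as independent. Symbols came from the GRCr8 RefSeq table through the accession; the array design is tied to rn4. Named with values were the catalytic beta subunits, the activators, the members with extreme LO or dye parts and the pairs of probes that differed most, and, of the other lists, the called and the 2 highest and 2 lowest probes, of which 1 is not reported here, while Psma4 and some genes with a promoter motif or a position beside members were added after their values were seen. Psma3l, Psma8, Psmb5, Psmb11, Psmc6, Psmd5, Psmd7, Psmd8, Psmd11, Psmd13, Psmd14, Psme4, Psmf1 and Psmg1 to Psmg4 were not analysed here, as no accession matched. The members and the lists were chosen with earlier results of these data known. Simulated data served to check the call rule. Of 200 changed among 41009 probes it found 79 (48 of the 49 whose error was low) and made 3 false calls. With a dye effect of SD 0.3 added it found 66 (40 of the 49) and made 0. The changes put in were larger than any member ratio here, so that the check says nothing on smaller ones. Python 3.11.15 (numpy 2.4.6, pandas 2.3.3, scipy 1.17.1, matplotlib 3.10.9) and limma 3.58.1 in R 4.3.3 were used.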

Additional observations from a re-analysis of the deposited data

How the results depend on the processing

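The counts of 0 members higher, 0 lower and 0 towards the same dye stayed at 0 under p thresholds of 0.05 and 0.001, Benjamini-Hochberg adjustment, the filter on dim probes, flagged features kept, genes or features counted, and genes that are no subunits left out. Each array alone also gave 0 higher and 0 lower, while the number towards the same dye has no value on a single array. None of these settings could give another count, since no member had a p under 0.0981 and none of their spots was flagged. The choice of names by a gene name column was not run, as these files were read by accession. Background-subtracted signals centred on the median, without LOWESS, moved the median LO part of the members to -0.070, the median dye part to 0.464 and the SD of the dye part to 0.149, but they also moved the medians of all probes above background to -0.074 and 0.343. Normexp with loess gave an SD of the LO part of 0.057, against 0.072 over all probes. With dim probes included, or with at least 1 channel above background on each array, the SD of the dye part was 0.136, as both settings add Psmc3ip. The limit on a mean signal over 500 and the counts of direction relative to the median of all probes were chosen after seeing the data. Of 66 alternatives for the counts, medians and SDs, 60 kept their value within the limits set. This share is no measure of stability, since the counts could not move. Keeping flagged features or using the deposited values could not move the medians and SDs either. The limit for a median was the SD of the median log2 ratios of the 2 arrays, which were 0.041 and 0.011. Over the alternatives, the ratio of the 16 named member probes above background lay between 0.863 and 1.17. No paired analysis was possible because both arrays carry the same 2 pools. The number of arrays and pools limits every value, and the spread between rats is unknown.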
